A study of Homo sapiens with 65 samples.

Results

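The comparison described here is of RUNX1-deficient endothelium at day 12 against day 7 of differentiation from human embryonic stem cells. Its members are the 8 libraries titled as KO cells of the gate SOX17-positive, CD34-positive and CD43-negative, 4 of day 7 and 4 of day 12, out of 65 libraries in the series. KO cells derive from H9, an established human embryonic stem cell line, and carry the reporters SOX17 mCHERRY/w and RUNX1C GFP/w together with RUNX1 -/-, a deletion of the DNA-binding domain. The matching WT cells carry both reporters and no RUNX1 deletion, and 4 WT libraries of each day passed the same gate. The labels do not say whether the KO line is 1 clone. Both genotypes followed the same mesoderm protocol in STAPEL medium. Until day 4 the medium held BMP4 (20 ng/ml), ACTIVIN A (7.5 ng/ml), VEGF (25 ng/ml), SCF (printed by the submitters as 50 mg/ml) and FGF2 (10 ng/ml). SB431542 and CHIR 99021 (3 µM each) were added from day 2 to day 4. VEGF, SCF, FGF2 and IGF2 (25 ng/ml) were given from day 4 to day 8, and the labels state no factor after day 8, so the days differ in medium as well as in age. Total RNA was sequenced from TruSeq libraries.

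RUNX1 is the transcription factor required for the endothelial-to-haematopoietic transition, in which haemogenic endothelial cells give rise to blood cells. SOX17 marks arterial and haemogenic endothelium, CD34 is shared by endothelial and blood progenitors, and CD43, encoded by SPN, appears on early blood cells. MYB and SPI1 (PU.1) are transcription factors of definitive blood progenitors and of myeloid cells, and LYVE1 is a hyaluronan receptor of lymphatic, sinusoidal and yolk sac endothelium.

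The KO libraries held 13435209 to 17386328 counts at day 7 and 15737025 to 18867169 counts at day 12. Levels are given in CPM, the count scaled to the size of the library after TMM normalisation. A change is the log2 fold change of day 12 against day 7 with its standard error, and a gene is called where edgeR's quasi-likelihood test gave a Benjamini-Hochberg adjusted p under 0.05 over 22978 genes. Nothing in the labels says that the libraries came from separate cultures, so each p-value speaks to the scatter of these libraries, which may be technical. On the first principal component of the 16 KO and WT libraries of this gate, which held 56.4% of the variance, KO library 3 of day 7 lay at -13.7 and the other KO libraries of day 7 between -23.9 and -21.9. KO libraries 1 and 3 of day 12 lay at 14.6 and 16.1, and libraries 2 and 4 at 28 and 28.7. Some results that depend on the KO libraries numbered 3 are given with and without them. Of 145 named genes called in KO cells, 19 lost the call without these libraries, among them NT5E, MMRN2 and NKD1.

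The gate was reflected in the RNA at both days. SOX17 measured 178, 178, 189 and 237 CPM in KO libraries 1 to 4 of day 7 and 182, 158, 114 and 148 CPM at day 12 (log2 change -0.38 ± 0.21, adjusted p = 0.266). CD34 measured 1470 to 1720 CPM at day 7 and then 1630 to 1960 CPM at day 12 (adjusted p = 0.534). The defining endothelial genes CDH5 (VE-cadherin) and KDR (VEGF receptor) were abundant at both days, CDH5 at 1420 to 1710 CPM and then 1710 to 2310 CPM, and KDR at 6130 to 6830 CPM and then 6330 to 8780 CPM. The summed level of 23 pan-endothelial genes was 16600 to 17300 CPM at day 7 and then 16900 to 20000 CPM at day 12. Among markers of other cells, the leukocyte gene PTPRC (CD45) had 0 counts at day 7 and 1 count at day 12 over the 4 libraries, and HBA1, HBA2, HBB and HBG1 had 0 counts at both days. Other blood genes were read. The summed level of 18 leukocyte genes was 321 to 358 CPM at day 7 and then 246 to 274 CPM at day 12. Sums were 23.4 to 33.4 and then 7.22 to 10.9 CPM for 14 myeloid genes. They were 47.1 to 61.9 and then 22.5 to 37.6 CPM for 10 megakaryocyte genes, and 28.1 to 30.8 and then 23.8 to 40.8 CPM for 13 erythroid genes. The summed level of 13 mesenchymal genes was 407 to 733 CPM at day 7 and then 384 to 872 CPM at day 12, and that of 9 epithelial and endodermal genes was 90.1 to 110 CPM and then 44 to 77.7 CPM. The part of these other markers in the results below was not tested.

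From day 7 to day 12, 3052 genes were called in KO cells, 13.3% of those tested. Of these, 1378 were higher (6.0%) and 1674 lower (7.29%) at day 12, and 688 and 774 of them differed at least 2-fold. The median log2 change of all genes tested was -0.01. The gene lists below were chosen with earlier results of these data known, so their shares of calls can exceed those of all genes by that choice. Shares of all genes are printed beside list counts as a scale and not as a test. Haematopoietic regulators, HOXA genes and genes of retinoic acid handling were among those lower at day 12, whereas lymphatic and sinusoidal endothelial genes, KLF2, KLF4 and KLF6 and immediate early genes were among those higher. In bulk RNA, fewer cells of a type and less RNA per cell cannot be told apart.

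**Figure D1:**
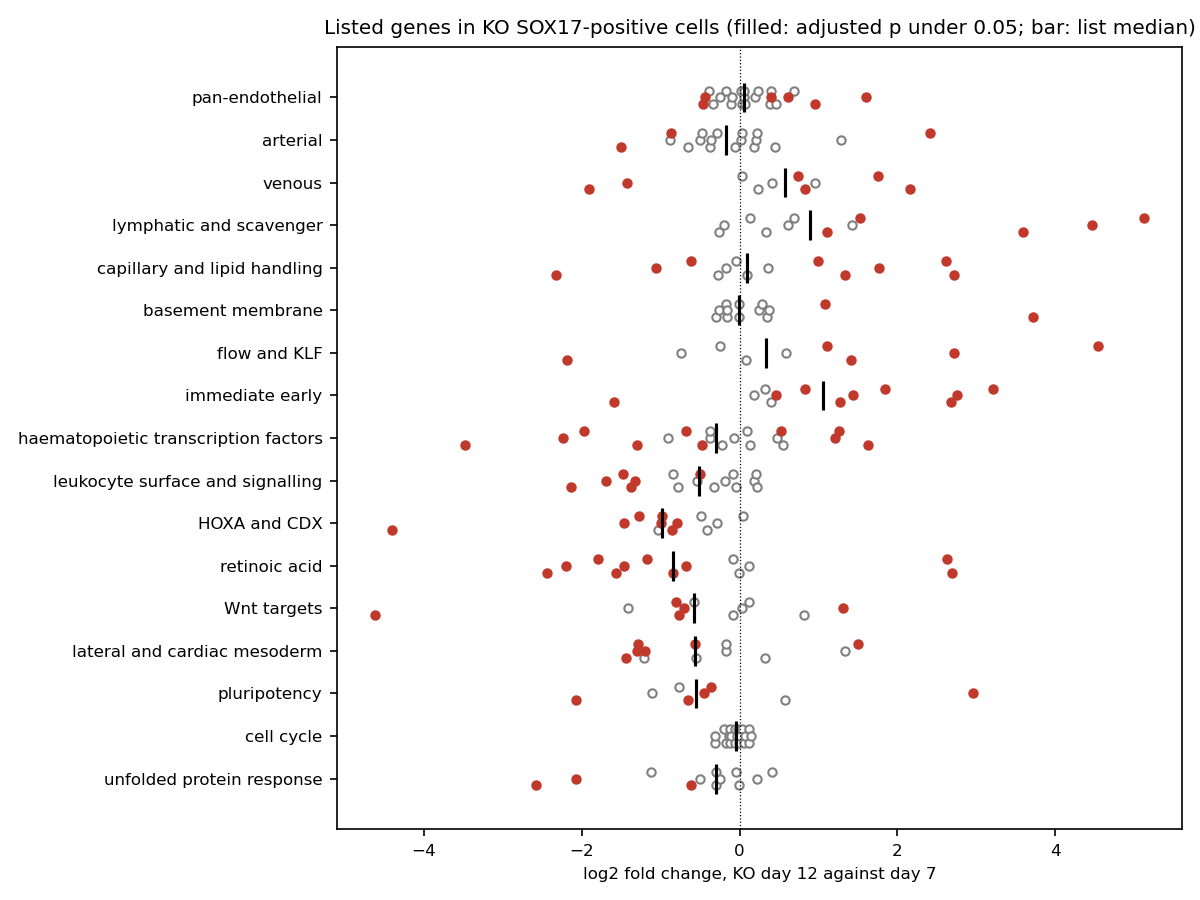
Log2 fold change of KO cells at day 12 against day 7 for members of 17 gene lists, with one point per gene with more than 3 counts at both days. Filled points had an adjusted p under 0.05, open points did not, and bars mark list medians, which were -0.98 for HOXA and CDX genes and 1.05 for immediate early genes.

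MYB fell more than any other haematopoietic transcription factor listed that had over 3 counts at both days. It lies on chromosome 6 at 135181315 to 135219173, plus strand, of GRCh38. Its level was 33.3, 31.1, 20.5 and 39.3 CPM in KO libraries 1 to 4 of day 7 and 2.87, 2.19, 2.61 and 3.49 CPM at day 12. The 4 libraries of day 12 lay close together and far below those of day 7, so the groups did not overlap. The log2 change was -3.48 ± 0.25 (adjusted p = 2.22e-10), from a mean of 31 ± 7.81 to 2.79 ± 0.542 CPM (SD, n = 4). Counting is not stated to use strand, and MYB-AS1 on the opposite strand fell from a mean of 2.10 to 0.156 CPM, so reads of the pair cannot be told apart where they overlap. In other sorted groups MYB measured 44.7 ± 5.17 CPM in SOX17-negative KO cells of day 7 (SD, n = 3) and 8.24 CPM in the single SOX17-negative KO library of day 12, the latter scaled by its total count alone. The WT gates of day 12 with CD43-positive cells were far higher, at 279 ± 91.6 CPM without SOX17 (SD, n = 3) and 254 ± 53.7 CPM with SOX17 (SD, n = 2).

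MYB was also the single gene whose change was called as differing between the genotypes in the main edgeR fit, 1 of 22978 genes (0.00435%). That number depended on the setting, with 0 for limma-trend and 11 without the filter on low counts. WT levels fell from 42.9 to 55.5 CPM at day 7 to a mean of 21.5 ± 6.40 CPM at day 12 (SD, n = 4), a log2 change of -1.20 (adjusted p = 1.29e-04). The KO change was lower than the WT change by -2.28 ± 0.32 on the log2 scale (adjusted p = 0.00256, edgeR). At an unadjusted p under 0.05 the difference passed in 561 genes. With limma-trend on the deposited log2 RPKM values the MYB difference was -1.04 with an adjusted p of 1.0. With the replicate number as a block, which pairs most KO and WT libraries of a day, the test called 6 genes. These were MYB, SPN, CSF1R, KCNK17, ATP2A3 and P2RX1, each with a KO change below the WT change. In some sorted groups of that fit outside the compared ones, the replicate number did not follow the library numbers, so the block may group some libraries wrongly. A further block, called the library run here, grouped the libraries by stretches of the library numbers that open their titles. No label names such a run or says what it stands for. With the library run as the block the test called 3 genes, MYB, P2RX1 and SPN. With the replicate block on the compared groups alone it called 1, MYB. ATP2A3, P2RX1 and CSF1R were named after their values were seen. Beside this, PTPRC had 1 count in WT cells at day 7 and 57 at day 12, and CSF1R, the macrophage colony-stimulating factor receptor, had WT means of 0.489 and 3.34 CPM against KO means of 0.527 and 0.289 CPM. The part of blood cells within the WT gate in the difference was not tested.

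The 250 bases before the MYB start in RefSeq (GRCh38.p14, plus strand, chr6:135181058-135181307) are shown because MYB carries the one difference between genotypes called in the main edgeR fit. A search of both strands for the RUNX motif TGTGGT, the ETS core GGAA, the GATA motif AGATAA and the E-box CANNTG found no match in this window, so no base is in capitals. Among 35116 windows of the same length, 11% held TGTGGT, 92.7% GGAA, 9.17% AGATAA and 61.8% CANNTG. Absence of these letters says nothing about other windows of the gene.
MYB: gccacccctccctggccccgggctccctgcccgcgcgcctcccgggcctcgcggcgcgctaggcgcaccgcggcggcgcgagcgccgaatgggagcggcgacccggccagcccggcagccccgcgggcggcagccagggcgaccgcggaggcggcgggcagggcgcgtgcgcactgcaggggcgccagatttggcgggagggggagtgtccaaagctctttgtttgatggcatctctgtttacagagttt

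SPI1 (chromosome 11, 47354860 to 47378576, minus strand) was near the limit of detection. It measured 0.882, 1.19, 0.677 and 0.691 CPM in KO libraries of day 7, or 55 counts over the group, and 0.0637, 0.237, 0.213 and 0.187 CPM at day 12, or 12 counts. The groups did not overlap, and SPI1 fell by 2.24 ± 0.53 on the log2 scale (adjusted p = 0.0046). The call ended with limma-trend on the deposited log2 RPKM, where 1 is added before the logarithm (-0.37, adjusted p = 0.107). WT cells had 1.41 and 2.12 CPM (log2 change 0.58, adjusted p = 0.217), and the difference between genotypes was -2.81 with an adjusted p of 0.498. That difference passed with DESeq2 (0.00547), without the filter on low counts (0.00391) and without WT library 1 of day 12 (0.0268). In CD43-positive WT cells of day 12 SPI1 reached 186 ± 21.2 CPM without SOX17 (SD, n = 3).

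The RUNX1 count itself, on chromosome 21 at 34787801 to 36004667, minus strand, does not resolve the deleted domain and so does not check the deletion. KO cells still held RUNX1 reads, at 38.3, 36.7, 28.9 and 42.5 CPM at day 7 and then 19.8, 9.36, 19.1 and 11.4 CPM at day 12. The groups did not overlap and RUNX1 fell by 1.29 ± 0.25 on the log2 scale (adjusted p = 4.97e-04). WT means were 107 and 61.8 CPM (log2 change -0.79, adjusted p = 0.0181), and the change did not pass the test of a difference between genotypes (-0.50, adjusted p = 1.0).

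**Figure D2:**
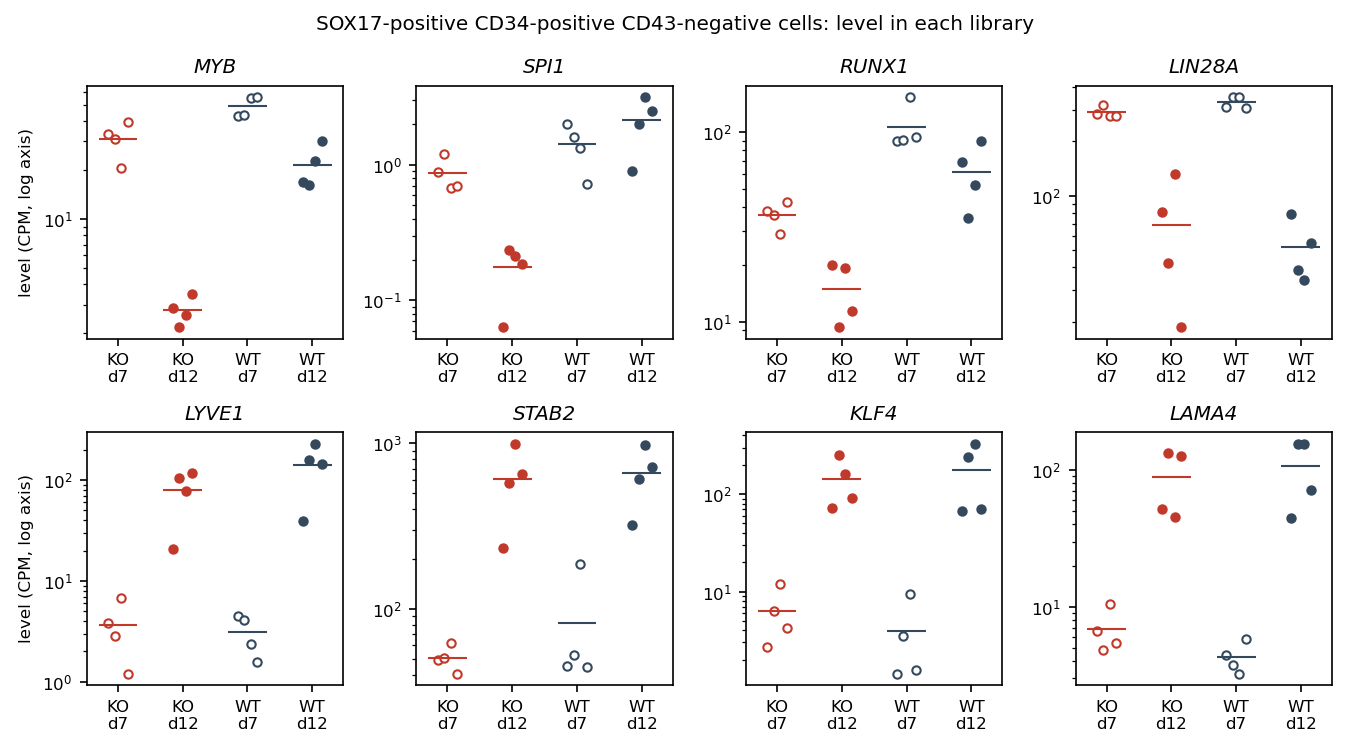
CPM on a log axis for 8 genes in each of the 4 libraries per group, for KO in red and WT in dark blue, open for day 7 and filled for day 12, with a line at the mean. KO MYB at day 12 lies at 2.19 to 3.49 CPM, below its WT mean of 21.5 CPM, while KO and WT LYVE1 overlap at day 12.

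Of 22 haematopoietic transcription factors tested, 6 fell and 4 rose in KO cells, beside 7.29% and 6.0% of all genes, and their median log2 change was -0.30. GFI1B, a repressor of the erythroid and megakaryocyte lineages, fell from 1.13 to 1.51 CPM to 0.178 to 0.51 CPM (log2 change -1.97 ± 0.49, adjusted p = 0.00662, but 0.346 with limma-trend). LMO2, a bridging cofactor of the TAL1 complex, rose from 148 to 184 CPM to 209 to 238 CPM (0.53 ± 0.13, adjusted p = 0.00702). CBFA2T3, the corepressor ETO2, rose from 2.4 to 4.47 CPM to 4.52 to 10.3 CPM (1.26 ± 0.29, adjusted p = 0.00302). BCL11A and HLF, factors of lymphoid cells and of stem cells, rose by 1.63 ± 0.34 and 1.21 ± 0.35 (adjusted p = 0.00134 and 0.0192). Those 2 calls ended under some alternatives, BCL11A with limma-trend (0.138) and HLF without KO library 4 of day 12, 1 of day 7 or 4 of day 7 (at most 0.0861). GATA2 and TAL1, core factors of haemogenic endothelium, measured 32.9 to 48.5 and 182 to 275 CPM at day 7 and then 33.3 to 52.3 and 154 to 212 CPM at day 12 (adjusted p = 0.791 and 0.317). GFI1, a RUNX1 target of the endothelial-to-haematopoietic transition, had 10 counts over the KO libraries of day 7 and 15 over those of day 12. These are sums over libraries of at least 13435209 counts each, so they are not on the CPM scale. WT means of GFI1 were 2.48 and 4.95 CPM.

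Leukocyte surface and signalling genes showed calls in the lower direction in KO cells. Of 18 tested, 6 fell (7.29% of all genes) and 0 rose with edgeR, also at an unadjusted p under 0.05, and 0 rose with DESeq2 or limma-trend. The median log2 change was -0.52. VAV1, a guanine nucleotide exchange factor of blood cell signalling, fell from 41.7, 45.4, 43.5 and 38.2 CPM to 14.1, 17.1, 16.8 and 16.8 CPM (-1.38 ± 0.14, adjusted p = 1.09e-07). RAC2, a GTPase of blood cells, fell from 11.1 to 15.3 CPM to 3.36 to 4.32 CPM (-1.70 ± 0.25, adjusted p = 2.81e-05). Neither gene overlapped between the days. PTPN6, the phosphatase SHP-1, fell by 1.47 ± 0.23 on the log2 scale (adjusted p = 4.9e-05). SPN, which encodes the CD43 that the gate excludes, had 101 counts over the 4 libraries of day 7 and 24 over those of day 12 (-2.14 ± 0.40, adjusted p = 4.29e-04, but 0.187 with limma-trend), and it shares its locus with the overlapping gene AC009086.2. VAV1, RAC2 and PTPN6 fell in WT cells too, by 1.10, 0.94 and 0.75 (adjusted p = 2.12e-06, 0.00651 and 0.0182), and in WT the list had 3 members higher and 3 lower, beside 8.57% and 9.23% of all genes.

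Few lineage genes of blood were called. GP1BA, a platelet receptor, fell from 8.63 to 11.9 CPM to 2.19 to 4.08 CPM (-1.64 ± 0.24, adjusted p = 2.33e-05), without overlap. Of 13 myeloid genes tested 2 fell, beside 7.29% of all genes. CLEC11A, a secreted growth factor, fell from 19.2 to 28.3 CPM to 4.3 to 7.78 CPM (-2.02 ± 0.25, adjusted p = 2.34e-06) and AZU1, an azurophil granule protein, by 1.69 ± 0.40 (adjusted p = 0.00394, but 0.0546 with limma-trend). None of the 4 erythroid genes that passed the filter on low counts was called with edgeR, DESeq2 or limma-trend, and 0 had an unadjusted p under 0.05. Outside the lists, BTK, a tyrosine kinase of B and myeloid cells, fell from 32.2, 21.9, 33.8 and 23.4 CPM to 3.31, 1.66, 3.68 and 5.04 CPM (-3.02 ± 0.25, adjusted p = 5.06e-09), and it fell by 2.10 in WT cells as well.

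Of 14 listed genes of lymphatic and liver sinusoidal endothelium 12 were tested, of which 5 rose, beside 6.0% of all genes, and 0 fell with edgeR, also at an unadjusted p under 0.05. The median log2 change was 0.90, and the 5 genes rose as well without the KO libraries numbered 3. LYVE1 (chromosome 11, 10556966 to 10611689, minus strand) measured 3.84, 2.86, 6.84 and 1.21 CPM at day 7 and then 20.8, 104, 77.3 and 118 CPM at day 12. Library 1 of day 12 was lower than its 3 fellows and still above the day 7 libraries. The log2 change was 4.47 ± 0.65 (adjusted p = 2.29e-05), a 22.2-fold rise, and WT LYVE1 rose by 5.50 (difference -1.03, adjusted p = 1.0). LYVE1 lies within MRVI1 on the same strand, so shared reads cannot be assigned.

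STAB2, a scavenger receptor for hyaluronan, measured 48.7, 50.7, 62.1 and 40.6 CPM at day 7 and then 232, 577, 988 and 647 CPM at day 12 (3.60 ± 0.72, adjusted p = 9.18e-04). PROX1, the lymphatic master regulator, measured 20, 20.7, 17.7 and 15.3 CPM and then 34.5, 58.5, 53.9 and 65.2 CPM (1.53 ± 0.29, adjusted p = 5.71e-04). In both genes library 1 of day 12 was the lowest of its day, and the days did not overlap. RELN, a secreted matrix protein of lymphatic endothelium, had 4 counts over the day 7 libraries and 168 over those of day 12 (5.12 ± 0.74, adjusted p = 2.29e-05). Without KO library 2 of day 7 its change was 6.39. The paralog STAB1 and the receptor FLT4 were not called, at means of 798 and 546 CPM at day 7 and then 668 and 599 CPM at day 12 (adjusted p = 0.54 and 0.687).

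Among venous genes, 4 of 10 tested rose and 2 fell, beside 6.0% and 7.29% of all genes, with a median log2 change of 0.58. NR2F2 (COUP-TFII), which specifies venous identity, rose from 87.2, 109, 111 and 117 CPM to 302, 399, 367 and 362 CPM (1.76 ± 0.28, adjusted p = 5.7e-05). FLRT2, a transmembrane guidance protein, rose from 141, 201, 202 and 128 CPM to 596, 845, 787 and 770 CPM (2.16 ± 0.36, adjusted p = 9.98e-05). ACKR1, the chemokine receptor of venules, fell from 1.95 to 3.57 CPM to 0.498 to 1.48 CPM (-1.42 ± 0.32, adjusted p = 0.00239). The other 3 calls of the list ended when single libraries were left out or under another setting, with adjusted p of at most 0.0526 for NRP2, 0.0879 for NT5E and, highest with limma-trend, 0.29 for VCAM1, and 2 genes were called higher without library 1 or library 4 of day 7.

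Tip cell genes mark sprouting vessels, and 3 of 11 tested rose and 1 fell, beside 6.0% and 7.29% of all genes. APLN, the apelin ligand, rose from 2.52, 3.51, 2.33 and 1.84 CPM to 17, 29.1, 5.28 and 33.6 CPM (3.05 ± 0.42, adjusted p = 1.15e-05). CXCL12, a chemokine of the stem cell niche listed with inflammation and adhesion genes, rose from 2.65, 2.92, 2.71 and 1.84 CPM to 20.4, 6.76, 5.22 and 26.4 CPM (2.54 ± 0.38, adjusted p = 3.75e-05). Both genes were lowest in library 3 of day 12, and neither overlapped between the days.

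Of 18 arterial genes tested 1 rose and 2 were called lower, shares near the 6.0% and 7.29% of all genes, with a median of -0.17. IGFBP3, an insulin-like growth factor binding protein, rose from 2.9 to 4.26 CPM to 11.8 to 21.5 CPM (2.41 ± 0.37, adjusted p = 4.3e-05). HEY2, a Notch target of arterial cells, measured 68.9, 53.4, 90.3 and 95.3 CPM at day 7 and then 41.6, 8, 15 and 44 CPM at day 12 (-1.51 ± 0.43, adjusted p = 0.0179), and SEMA3G changed by -0.87 ± 0.25 (adjusted p = 0.0211). Both calls were lost without KO library 2 or 3 of day 12 or library 4 of day 7, and without the libraries numbered 3 the list held 2 higher and 0 lower calls. The gap junction gene GJA5 stood out by its split at day 12, chosen after its values were seen, at 763 and 787 CPM in libraries 1 and 4 and 171 and 178 CPM in libraries 2 and 3, against 125 to 299 CPM at day 7 (1.28 ± 0.53, adjusted p = 0.117).

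Of 23 pan-endothelial genes tested 4 rose and 2 fell, beside 6.0% and 7.29% of all genes. The other 17 were not called, and the median log2 change was 0.06. CLDN5, the tight junction protein claudin-5, rose from 106, 138, 123 and 137 CPM to 303, 504, 313 and 409 CPM (1.60 ± 0.22, adjusted p = 1.57e-05), and ESAM, an endothelial adhesion molecule, rose from 265 to 363 CPM to 404 to 535 CPM (0.62 ± 0.16, adjusted p = 0.00758). FLI1, an ETS factor of endothelium and blood, fell from 449 to 543 CPM to 345 to 387 CPM (-0.47 ± 0.10, adjusted p = 0.00138). These 3 calls were retained under each alternative, whereas those of PECAM1, ROBO4 and MMRN2 ended when single libraries were left out (adjusted p at most 0.14, 0.133 and 0.0763). The number of higher calls was 4, and 2 without library 2 or 4 of day 12 or library 1, 2 or 4 of day 7. With the compared groups alone 7 were called higher and 4 lower.

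Of 13 capillary and lipid-handling genes tested 5 rose and 3 fell, beside 6.0% and 7.29% of all genes, with a median log2 change of 0.10. CAVIN2, a coat protein of caveolae, rose from 23.9, 28.2, 30.8 and 17.8 CPM to 88.8, 257, 148 and 169 CPM (2.72 ± 0.41, adjusted p = 3.29e-05), and CAV1, their main structural protein, from 120 to 166 CPM to 340 to 456 CPM (1.33 ± 0.22, adjusted p = 1.19e-04). GPIHBP1, which anchors lipoprotein lipase on capillary endothelium, rose from 33 counts to 213 counts over the group (2.62 ± 0.44, adjusted p = 1.37e-04). CA4, a carbonic anhydrase of capillaries, fell from 65 counts to 13 counts (-2.32 ± 0.53, adjusted p = 0.00291), although library 3 of day 7 was as low as day 12. Without library 2 of day 12 the lower calls of the list numbered 1. Among 13 basement membrane genes tested 2 rose, beside 6.0% of all genes. LAMA4, the laminin chain of endothelial basement membrane, measured 6.62, 4.82, 10.5 and 5.47 CPM at day 7 and then 51.5, 133, 45.7 and 126 CPM at day 12 (3.71 ± 0.44, adjusted p = 1.57e-06), while the other collagen IV, laminin, nidogen and perlecan genes listed were not called. The second call, COL15A1, overlapped between the days (1.08 ± 0.27, adjusted p = 0.00692, but 0.0533 with the replicate block on the compared groups alone).

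Of 10 genes of flow response and KLF factors tested 4 rose and 1 fell, beside 6.0% and 7.29% of all genes, with a median log2 change of 0.34. The factors KLF2 and KLF4 are induced by blood flow in endothelium. KLF4 measured 2.71, 6.31, 12 and 4.2 CPM at day 7 and then 71.8, 254, 159 and 90.3 CPM at day 12, a 23.2-fold rise (log2 4.54 ± 0.66, adjusted p = 2.42e-05). KLF2 rose from 39.8 to 66 CPM to 92.6 to 183 CPM (1.42 ± 0.32, adjusted p = 0.00281), and KLF6 from 180 to 256 CPM to 362 to 581 CPM (1.11 ± 0.21, adjusted p = 4.94e-04). None of these 3 overlapped between the days, and in each the highest libraries of day 12 were 2 and 3. NOS3 and THBD, endothelial genes downstream of flow, were not called (-0.24 ± 0.17 and 0.59 ± 0.33, adjusted p = 0.437 and 0.289). CYP1A1, an aryl hydrocarbon receptor target, fell from 176, 75.3, 207 and 106 CPM to 28.2, 20.3, 36.9 and 38.7 CPM (-2.18 ± 0.35, adjusted p = 7.4e-05). The related gene CYP1B1 went the other way and was the remaining rise of the list (2.72, adjusted p = 0.00162, but 0.067 with limma-trend).

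Immediate early genes, whose transcription starts within minutes of a growth signal, stress or handling, were mostly higher at day 12. Of 12 tested 8 rose and 1 fell, beside 6.0% and 7.29% of all genes, with a median log2 change of 1.05. Without KO library 1 of day 7, KO library 2 of day 12 or the KO libraries numbered 3, the number that rose was 4, 5 and 5. FOS, the AP-1 subunit, measured 68.3, 98.8, 182 and 70.1 CPM at day 7 and then 470, 1180, 1010 and 175 CPM at day 12. Library 4 of day 12 lay below library 3 of day 7, so the groups overlapped, and the log2 change was 2.76 ± 0.68 (adjusted p = 0.00577). FOSB measured 21.3, 24.2, 75.9 and 20.9 CPM and then 154, 614, 471 and 76 CPM (3.22 ± 0.86, adjusted p = 0.0107, and 3.89 without library 3 of day 7). DUSP1, a phosphatase that inactivates MAP kinases, measured 37.8, 52.5, 64.5 and 46.4 CPM and then 230, 481, 444 and 137 CPM (2.69 ± 0.43, adjusted p = 7.92e-05). IER3 moved the other way, from 4.21 to 8.57 CPM to 1.9 to 2.93 CPM (-1.60 ± 0.36, adjusted p = 0.00307). NR4A2, an orphan nuclear receptor that is also rapidly induced, measured 0.945, 1.43, 2.03 and 1.5 CPM and then 11, 81.5, 52.3 and 12.9 CPM (4.75 ± 0.79, adjusted p = 1.03e-04, and 4.13 without library 2 of day 12).

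Within day 12 the immediate early genes split the libraries in the same way in both genotypes. Of the 8 that rose in KO cells, 7 had both libraries 2 and 3 above both libraries 1 and 4 in KO cells, and 8 of 8 did so in WT cells, while at day 7 this held for 5 in KO and 3 in WT cells. The summed level of the 12 genes was 1770, 3680, 3070 and 1130 CPM in KO libraries 1 to 4 of day 12, against 646 to 930 CPM at day 7. WT libraries of day 12 summed to 1360, 3220, 3670 and 1070 CPM. The labels give no time from dissociation to lysis, and its part in these levels was not tested.

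**Figure D3:**
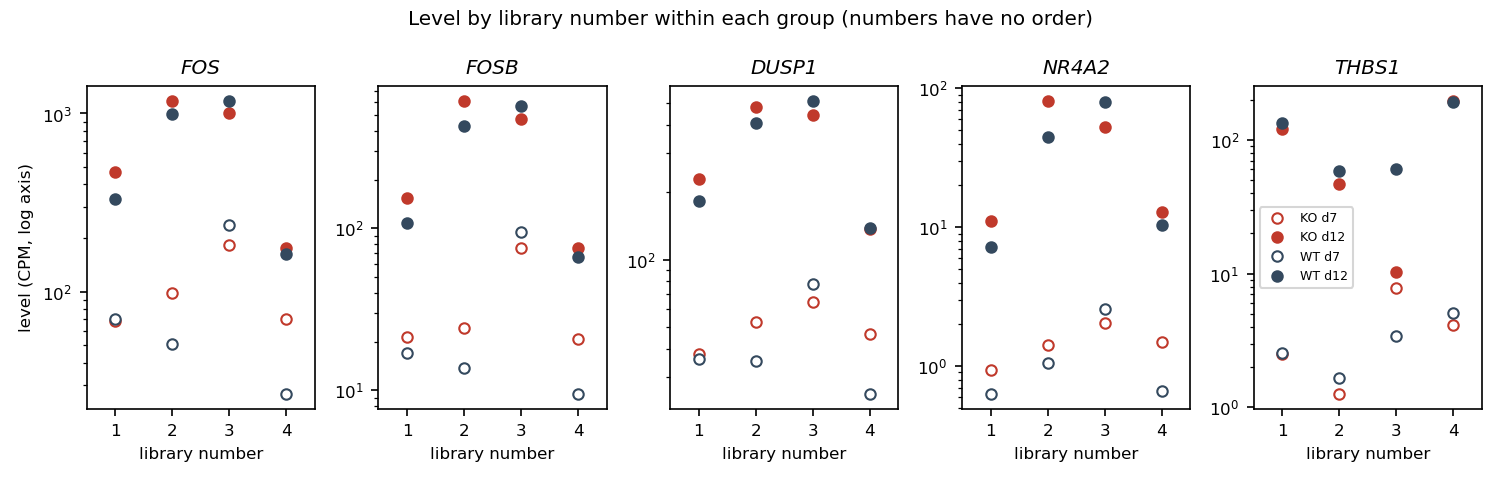
CPM on a log axis against the library number, which carries no order, for FOS, FOSB, DUSP1, NR4A2 and THBS1 in KO (red) and WT (dark blue) cells of day 7 (open) and day 12 (filled). Libraries 2 and 3 of day 12 are the highest for the first 4 genes in both genotypes, whereas THBS1 is highest in libraries 1 and 4.

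The promoters of 2 of these genes are shown because they moved together and share a motif. A search for TGACGT, a core of the cyclic AMP response element, on both strands was added after the values had been seen. Of the 8 immediate early genes that rose, 5 held it in at least 1 window, and 7.1% of 35116 single windows of this length held it. These shares are of unlike units, as genes such as EGR2 have several windows, not all with a match. Genes and motif were chosen after the values were seen, so the shares do not test an enrichment. The windows are the 250 bases before the RefSeq start in GRCh38.p14, chr19:45467746-45467995 (plus strand) for FOSB and chr5:172771196-172771445 (minus strand) for DUSP1, and capitals mark TGACGT or its reverse complement, which overlap at one place in DUSP1. A match is a description of the letters and does not show a bound site.
FOSB: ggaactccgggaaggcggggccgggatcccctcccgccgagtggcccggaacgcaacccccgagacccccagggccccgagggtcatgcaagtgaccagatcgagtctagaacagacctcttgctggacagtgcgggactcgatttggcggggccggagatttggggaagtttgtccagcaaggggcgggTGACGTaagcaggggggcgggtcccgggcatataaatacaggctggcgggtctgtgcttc
DUSP1: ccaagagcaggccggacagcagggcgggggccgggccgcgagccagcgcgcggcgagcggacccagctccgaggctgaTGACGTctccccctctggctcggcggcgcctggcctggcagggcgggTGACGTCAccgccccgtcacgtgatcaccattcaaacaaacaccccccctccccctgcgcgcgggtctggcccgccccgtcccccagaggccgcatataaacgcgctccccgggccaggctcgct

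Of 14 listed patterning genes of the HOXA and CDX families 13 were tested, of which 8 fell (7.29% of all genes), 5 were not called and 0 rose, at an unadjusted p under 0.05 too and with DESeq2 or limma-trend. The median log2 change was -0.98. HOXA6 measured 22.4, 24.2, 22.6 and 24.9 CPM at day 7 and then 9.11, 8.83, 6.34 and 9.9 CPM at day 12 (-1.46 ± 0.25, adjusted p = 1.46e-04). HOXA5 measured 44.5, 44.8, 51.3 and 56.1 CPM and then 24, 20.3, 14.7 and 22.5 CPM (-1.27 ± 0.22, adjusted p = 1.61e-04). The days did not overlap in either gene, though reads of these neighbours and of HOXA3 and HOXA-AS3, which overlap them, cannot be fully told apart. CDX2, a caudal factor upstream of posterior HOX genes, had 140 counts over the day 7 libraries and 3 over those of day 12 (adjusted p = 5.3e-06), a ratio of 49.7 with a 95% counting interval of 16.6 to 244, which covers counting error only. CDX4 had 111 and 5 counts (-4.41 ± 0.61, adjusted p = 2.26e-05). EVX1, which borders the HOXA cluster, fell from 6.56 to 10.8 CPM to 0.799 to 1.18 CPM (-3.28 ± 0.28, adjusted p = 6.08e-09), together with the overlapping EVX1-AS.

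Retinoic acid is made from vitamin A by ALDH1A enzymes and degraded by CYP26 enzymes. Of 13 genes of this pathway tested, 8 fell and 2 rose, beside 7.29% and 6.0% of all genes, with a median log2 change of -0.84. ALDH1A2, the main synthetic enzyme of the embryo, fell from 121, 170, 118 and 149 CPM to 30.5, 43.4, 61.6 and 25.3 CPM (-1.79 ± 0.21, adjusted p = 9.64e-07). The degrading enzyme CYP26B1 fell as well, from 16.4, 4.94, 20.6 and 8.52 CPM to 4.01, 1.6, 2.03 and 1.62 CPM (-2.44 ± 0.44, adjusted p = 2.61e-04), and so did DHRS3, which reduces retinaldehyde (-2.20 ± 0.39, adjusted p = 2.2e-04), and the binding protein CRABP2 (-1.57 ± 0.32, adjusted p = 0.00109). CRABP1 rose from 23 to 149 counts (2.62 ± 0.61, adjusted p = 0.00387), and by 1.96 without library 4 of day 12. The second rise, ALDH1A1, with 4 and 30 counts, was lost when any of 7 KO libraries was left out (adjusted p at most 0.179).

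Of 13 lateral and cardiac mesoderm genes tested 5 fell and 1 rose, beside 7.29% and 6.0% of all genes. MSX1, a homeobox target of BMP signalling, fell from 26.6, 24.9, 15.1 and 28.7 CPM to 9.81, 9.42, 6.24 and 9.84 CPM (-1.44 ± 0.22, adjusted p = 4.72e-05), and HAND1, a factor of extra-embryonic and heart mesoderm, by 1.19 ± 0.27 (adjusted p = 0.00303). ISL1 rose from 1.88 to 2.02 CPM to 3.38 to 7.47 CPM (1.51 ± 0.31, adjusted p = 0.00128). Among 11 Wnt targets 4 fell and 1 rose, beside the same shares of all genes. SP5, a direct Wnt target, had 174 counts at day 7 and 7 at day 12 (-4.61 ± 0.44, adjusted p = 1.02e-07), and AXIN2, a feedback inhibitor, fell from 25.9 to 37.8 CPM to 17.1 to 21.2 CPM (-0.81 ± 0.15, adjusted p = 4.06e-04). The calls of RNF43, NKD1 and TNFRSF19 ended when single libraries were left out, and those of the first pair also with limma-trend (over these settings the adjusted p was at most 0.301, 0.181 and 0.0687), and the list held 2 lower calls without library 2, 3 or 4 of day 12 or library 1 of day 7. Of 12 BMP and TGFB targets tested 2 rose and 1 fell, beside 6.0% and 7.29% of all genes, with a median log2 change of -0.05. PMEPA1, a feedback inhibitor of TGFB signalling, rose by 0.78 ± 0.22 (adjusted p = 0.0147, but 0.0761 without library 4 of day 12, where 0 were called higher). BAMBI, a decoy receptor for BMP and activin, fell from 218 to 275 CPM to 56 to 118 CPM (-1.55 ± 0.19, adjusted p = 1.64e-06). Of 14 genes of FGF and MAPK feedback tested 1 rose and 3 fell, beside 6.0% and 7.29% of all genes, with a median of 0.02. The higher calls numbered 3 with DESeq2, without library 1 of day 12, without library 3 of day 7 and without the libraries numbered 3, 4 with the compared groups alone, and 0 without library 2 of day 7. DUSP6, a phosphatase of ERK, rose by 0.63 ± 0.17 (adjusted p = 0.0111, but 0.0525 without library 2 of day 7). The FGF-responsive factors ETV4 and ETV5 fell by 1.28 ± 0.25 and 1.01 ± 0.22 (adjusted p = 7.57e-04 and 0.00195).

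LIN28A, an RNA-binding protein of early embryonic cells, fell from 282, 320, 276 and 278 CPM to 80.9, 42.6, 132 and 18.7 CPM. The 4 libraries of day 12 were spread widely, and the log2 change was -2.08 ± 0.40 (adjusted p = 5.25e-04). HMGA1, a chromatin protein of proliferating embryonic cells, fell from 343 to 482 CPM to 203 to 299 CPM (-0.72 ± 0.13, adjusted p = 2.12e-04). The related genes LIN28B and HMGA2 were not called (-0.03 ± 0.17 and 0.04 ± 0.20, adjusted p = 0.953 and 0.942). The core pluripotency genes POU5F1 and NANOG had 6 and 3 counts at day 7 and 4 and 1 at day 12. Of 8 listed pluripotency genes tested, LIN28A among them, 4 fell and 1 rose, beside 7.29% and 6.0% of all genes. The gene that rose was TDGF1, with a log2 change of 2.96, and of 2.36 without library 3 of day 12 (adjusted p = 0.0108, edgeR).

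Outside the lists, 24 genes were named by size, 12 higher and 12 lower at day 12, and 22 of them were called in the same direction in WT cells. LHX6, a LIM homeobox factor, had the highest of these log2 changes. It measured 0.063, 0.417, 0.15 and 0.115 CPM at day 7 and then 19.8, 50.2, 11.9 and 54.1 CPM at day 12 (7.43 ± 0.64, adjusted p = 6.8e-09, and 8.20 without library 2 of day 7). SMOC1, a secreted BMP antagonist, measured 0.567, 0.715, 0.226 and 0.345 CPM and then 24.2, 51, 44.9 and 45.5 CPM (6.43 ± 0.49, adjusted p = 8.99e-10). PRRG3, a vitamin K-dependent membrane protein, measured 1.25 to 2.18 CPM and then 42 to 99.1 CPM (5.41 ± 0.34, adjusted p = 4.98e-11). The neutral endopeptidase MME (CD10) rose from 10.9 to 13.2 CPM to 107 to 228 CPM (3.92 ± 0.26, adjusted p = 1.48e-10), and its antisense neighbour MME-AS1 cannot be told apart from it without strand. SEMA3D, a guidance ligand, rose by 4.72 ± 0.50 (adjusted p = 2.37e-07) and the thyroid hormone receptor THRB by 4.09 ± 0.33 (adjusted p = 4.27e-09).

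Among the genes that fell most, GAD1, the enzyme that makes GABA, measured 150, 155, 129 and 149 CPM at day 7 and then 8.66, 2.19, 15.9 and 1.49 CPM at day 12. Libraries 1 and 3 of day 12 were the higher ones, the days did not overlap, and the log2 change was -4.35 ± 0.39 (adjusted p = 1.51e-08, and -5.14 without library 3 of day 12). AC007405.2, on the opposite strand of GAD1, fell with it and cannot be told apart from it. MCOLN3, a lysosomal cation channel, fell from 26 to 33.1 CPM to 2.24 to 3.95 CPM (-3.27 ± 0.18, adjusted p = 5.29e-12). CXCL5, a neutrophil chemokine, fell by 3.08 ± 0.33 (adjusted p = 3.64e-07), and TENM1, a teneurin adhesion protein, by 2.86 ± 0.20 (adjusted p = 2.2e-10). KCNK17, a potassium channel, measured 12.1, 8.87, 3.23 and 25.6 CPM at day 7 and then 0.51, 0.296, 0.746 and 0.125 CPM at day 12 (-4.85 ± 0.82, adjusted p = 1.29e-04). Its change was -4.22 without library 4 of day 7 and -5.60 without the libraries numbered 3. WT means of KCNK17 were 71 and 34 CPM, and the difference between genotypes of -3.78 had an adjusted p of 1.0, and of 0.0356, 0.241 and 0.19 with the replicate block, with the library run as the block and with the block on the compared groups alone.

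Amino acid stress genes lost their calls without 1 library. ASNS, asparagine synthetase, measured 58.6, 36.6, 157 and 12.8 CPM at day 7 and then 12.6, 9.42, 10.3 and 12 CPM at day 12, and SLC7A11, the cystine transporter, 19.7, 10.8, 65.1 and 2.3 CPM and then 2.1, 1.42, 1.12 and 1.93 CPM. Library 3 of day 7 was the highest in both. The log2 changes were -2.58 ± 0.79 and -3.89 ± 1.15 (adjusted p = 0.0273 and 0.0223), and without that library -1.70 and -2.74 (adjusted p = 0.165 and 0.126). The unfolded protein response list held 3 lower calls of 12 tested, beside 7.29% of all genes, and 0 without that library, without library 4 of day 12 or without the libraries numbered 3.

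Cell cycle genes were not called in KO cells. None of 20 tested passed with edgeR, also at an unadjusted p under 0.05, or with DESeq2 or limma-trend, and the median log2 change was -0.04. MKI67, a marker of cycling cells, measured 142, 233, 113 and 214 CPM at day 7 and then 251, 199, 188 and 123 CPM at day 12, with full overlap. In WT cells 14 of the 20 fell, beside 9.23% of all genes, with a median of -0.68. The KO change was above the WT change in 20 of 20, yet 0 of these differences were called and 7 had an unadjusted p under 0.05, so a difference between the genotypes was not shown. Sterol synthesis genes gave 0 calls of 14 with edgeR in KO cells, with 1 at an unadjusted p under 0.05, 1 call with DESeq2 and 0 with limma-trend.

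WT cells of the same gate gave 4090 calls from day 7 to day 12, 17.8% of genes. Of the KO calls, 78.21% were also called in WT in the same direction, 58.36% of the WT calls were called so in KO, and 1 gene was called in opposite directions. A total of 664 genes were called in KO and not in WT, which does not show that their changes differed, since the main edgeR test of the difference called MYB alone.

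**Figure D4:**
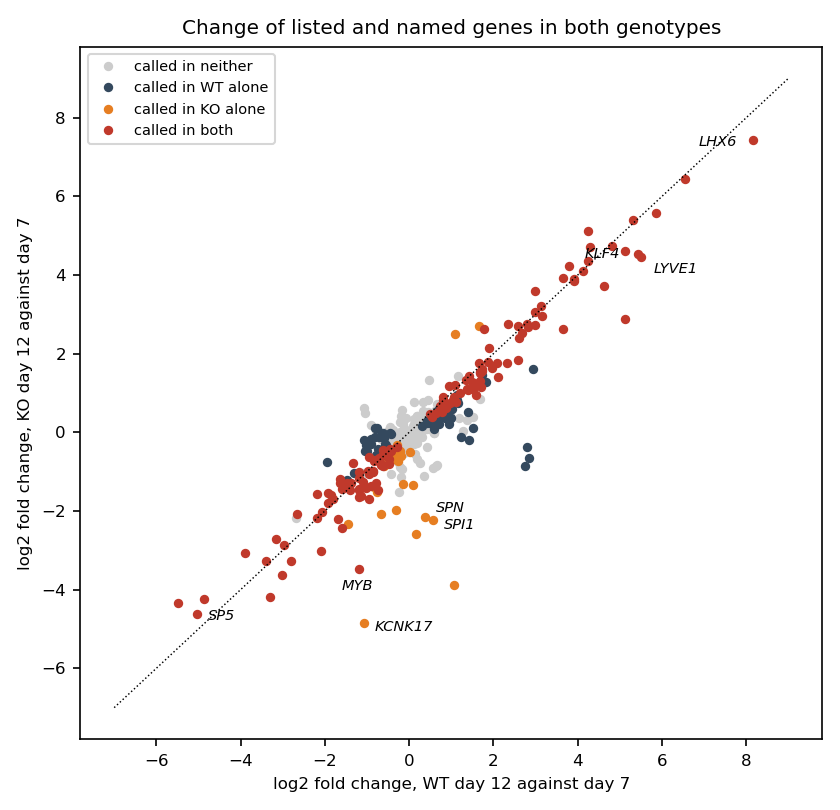
Log2 fold change of day 12 against day 7 in KO cells (vertical) against WT cells (horizontal) for listed and named genes with more than 3 counts at both days, coloured by the genotypes in which they were called, with a dotted line at equal change. MYB lies at -1.20 in WT and -3.48 in KO cells, and LHX6 at the upper end of both axes.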

How the data were processed

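RNA of sorted cells was sequenced from TruSeq total RNA libraries, per the labels' protocols. The deposited table holds raw fragment counts per gene for 65 libraries, and a second table deposited by the authors holds log2 RPKM values of the same genes. Per the submitters' processing notes the tools were cutadapt 1.18, featureCounts and R 3.2.2 with GRCh38. No source used here gives the aligner, annotation release or strand setting. Of 58302 gene identifiers, 58039 were named from GENCODE 29. Promoter sequences come from RefSeq.

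Counts of 28 sorted libraries in 8 groups were fitted together with edgeR 4.0.16 in R 4.3.3 (TMM factors, filterByExpr with a minimum count of 10 and total of 15, quasi-likelihood F test, Benjamini-Hochberg adjustment). The single KO library of SOX17-negative cells at day 12 was left out of the fit. Standard errors were taken from the F statistic. Contrasts were day 12 against day 7 in KO and in WT cells, and their difference. The procedure was tested on simulated data. Alternatives were DESeq2 1.42.0, limma 3.58.1 on the deposited log2 RPKM, other scaling, no filter, replicate blocks, the compared groups alone and leaving out libraries. A setting without the KO libraries numbered 3 was added after seeing the data.

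Named genes are up to 4 called members of each list in each direction, 12 called genes outside the lists in each direction with a mean log2 CPM of at least 3, those with the most extreme difference between genotypes, and the marker genes. Some uncalled genes are named for their role, and 1 gene is not reported here. The members and lists were chosen with earlier results of these data known. Replicate numbers were checked for pairing by correlating deviations from group means. Between KO and WT libraries of the same day, same-numbered libraries correlated at 0.198 to 0.801, and between the days in WT at 0.266 to 0.451. The numbers thus pair most of those libraries. KO library 3 of day 12 correlated better with WT library 1 of that day (0.225) than with WT library 3 (0.198). Between the days in KO cells the same-numbered libraries correlated at 0.258, 0.398 and 0.114 for numbers 1 to 3 and at 0.038 for number 4. There the numbers pair the libraries only in part, and the main fit held no block for them.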

Additional observations from a re-analysis of the deposited data

Results flagged for a closer look

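The change of MYB from day 7 to day 12 differed between KO and WT cells by -2.28 on the log2 scale in edgeR's test of the difference itself.

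In 16 of 288 gene and day combinations examined (5.56%), 1 KO library stood apart from its 3 fellows by a gap above Dixon's critical value. Chance gives about 1 in 20 such groups, so these are values to look at and no more. At day 7 the library that stood apart was the lowest for AXIN2 (25.9 CPM), CA4 (0.226 CPM), CAV1 (120 CPM) and EGLN3 (1.55 CPM). At day 7 it was the highest for COL3A1 (299 CPM), ETV4 (11.3 CPM), FOSB (75.9 CPM), LIN28A (320 CPM), LMO2 (184 CPM), NT5E (505 CPM) and TNFRSF19 (15.1 CPM). At day 12 it was the highest for CDH1 (10.8 CPM), EVX1 (1.18 CPM) and HEYL (1.72 CPM), and the lowest for MSX1 (6.24 CPM) and VAV1 (14.1 CPM). The call of CDH1, an epithelial cadherin, ended without library 4 of day 12, where its log2 change was 0.99 (adjusted p = 0.365) against 2.50 with it. That call also ended without library 2 of day 7, with limma-trend, and with the compared groups alone, with or without the replicate block.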

How the results depend on the processing

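The 3052 genes called in KO cells numbered 2704 to 3639 under the alternatives that kept all 8 libraries or left out the pair numbered 3, and 2202 to 2920 when single libraries were left out. The 4090 genes called in WT cells numbered 2822 to 3911 when single libraries were left out, and 6825 in a fit of the compared groups alone with the replicate block, which tested fewer genes. The number of genes whose change differed between genotypes was 1, against 8 with DESeq2, 11 without the filter on low counts, 6 with the replicate block, 3 with the library run as a block and 0 with limma-trend, and 1 with the replicate block on the compared groups alone. It was 1 to 6 when single libraries were left out, with 6 without WT library 1 of day 12 and 3 without KO library 4 of day 7. The cause was not tested. None of the named genes changed the direction of a call; direction was not tallied for the other genes.

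Same-numbered KO libraries of the 2 days correlated at 0.258, 0.398, 0.114 and 0.038 for numbers 1 to 4, and the day 7 libraries 1 to 3 correlated best with their own number while library 4 did not. With the replicate block 3522 genes were called in KO cells. Of 145 named genes called in KO cells, 92 were called under each alternative, 53 lost the call in at least 1, and 19 lost it without the libraries numbered 3. Leaving out 1 KO library ended 14 to 28 of these calls, and limma-trend 21. Genes of few reads, such as SPI1, are measured with little precision.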

Other observations

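Of 13 mesenchyme and smooth muscle genes tested in KO cells, 3 rose, beside 6.0% of all genes, and 10 were not called, with a median log2 change of 0.28. POSTN, a matricellular protein, measured 0.441, 0.417, 0.301 and 0.403 CPM at day 7 and then 5.22, 9.42, 6.61 and 1.74 CPM at day 12 (log2 change 3.84 ± 0.65, adjusted p = 1.26e-04, edgeR), without overlap. The proteoglycan genes LUM and DCN rose by 2.77 and 1.15 (adjusted p = 2.55e-04 and 0.013), while COL3A1, a fibrillar collagen, was not called (0.41). Of 9 imprinted genes tested 1 rose and 2 fell, beside 6.0% and 7.29% of all genes. IGF2, a fetal growth factor, measured 1380, 2550, 1180 and 1550 CPM at day 7 and then 5320, 5510, 2470 and 9300 CPM at day 12 (1.76 ± 0.38, adjusted p = 0.00182), where library 3 of day 12 lay below library 2 of day 7. Reads of IGF2 and INS-IGF2 cannot be told apart. PLAGL1, a growth-suppressing zinc finger factor, fell from 707 to 1010 CPM to 436 to 537 CPM (-0.78 ± 0.18, adjusted p = 0.003). The keratin genes KRT8 and KRT18 fell by 1.29 and 0.97, for 2 lower calls and 1 higher of 5 epithelial and endodermal genes tested, beside 7.29% and 6.0% of all genes. Of 18 interferon and MHC class I genes tested 1 rose, a share near the 6.0% of all genes, and 3 fell, beside 7.29%. Their median was -0.06. IFITM1, an interferon-induced membrane protein, fell by 1.61 (adjusted p = 0.00115), and without library 4 of day 12 the lower calls numbered 1. IFI44L, another interferon-induced gene, had 15 counts at day 7 and 121 at day 12 (2.89 ± 0.83, adjusted p = 0.0189), a call that ended without library 4 of day 12 or library 1 or 2 of day 7 and with limma-trend (adjusted p at most 0.619, with limma-trend).

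Some genes split the day 12 libraries in the opposite way to the immediate early genes, and were chosen after their values were seen. THBS1, an antiangiogenic matrix protein, measured 2.52, 1.25, 7.74 and 4.14 CPM in KO libraries of day 7 and 120, 46.6, 10.2 and 196 CPM at day 12 (4.60 ± 0.66, adjusted p = 1.81e-05). Its change was 3.95 without library 4 of day 12 and 5.52 without the libraries numbered 3. ESM1, a tip cell proteoglycan, measured 30.5, 6.22, 3.52 and 26 CPM at day 12. In WT cells GJA5 showed the same order as in KO cells, at 731, 216, 265 and 982 CPM.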
